A study of Mus musculus with 3 samples.

Results

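The genes of Schwann cells and of the myelin sheath were examined in normal mouse muscle. They comprised 7 genes, Mbp, Pmp22, S100b, Prx, Sox10, Egr2 and Mag, and every probe set that the platform annotation assigns to exactly 1 of them was taken, which gave 17 of the 22690 probe sets on the array. Mbp had 8 probe sets, Sox10 had 3, Egr2 and S100b had 2 each, and Pmp22 and Mag had 1 each. No probe set carried the symbol Prx, so this gene was not analysed here, and 6 genes remained. The samples were 3 normal muscles of littermate controls aged 3 to 6 weeks, called muscle 1, muscle 2 and muscle 3, each measured on 1 array. They served as the normal reference for tumours derived from Pax7+ satellite cells, and the tumour arrays were not analysed here. The protocol speaks of hindlimb injection of 4-hydroxytamoxifen, and the labels do not say whether the littermates received it, which alleles they carry, which muscle was taken or whether each sample is a separate animal. With 1 group there is no contrast, and the SD measures how far these 3 samples differ, a spread that may be technical.

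Schwann cells are the glia of peripheral nerve. In muscle they wrap the motor and sensory axons that run between the fibres, and non-myelinating terminal Schwann cells cover the neuromuscular junction. Sox10 is the transcription factor that defines the lineage, and together with it the zinc finger factor Egr2 (Krox20) switches on the myelin genes. Their products include myelin basic protein, which compacts the membrane on its cytoplasmic side, the tetraspan membrane protein Pmp22, periaxin (Prx), which links the sheath to the basal lamina, and myelin-associated glycoprotein (Mag), which sits in the membrane facing the axon. S100b is a calcium-binding protein used to stain Schwann cells. Several of these genes are not restricted to Schwann cells: Pmp22 is transcribed widely, the Mbp locus also gives Golli transcripts in leukocytes, S100b is found in adipocytes and cartilage, and Egr2 belongs to the immediate early genes.

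Upstream sequence is shown for 3 members that stand at different ends of the data: Pmp22, whose probe set was well above background in every muscle, and S100b and Mag, whose probe sets were not. Pmp22 is known to be transcribed from alternative promoters, one of them used mainly by myelinating Schwann cells and another in many tissues. The probe set is named for the gene and its value gives no share per promoter. The windows, from RefSeq annotation of GRCm38.p6, are the 250 bases before an annotated start on the coding strand, 5′ to 3′. The table holds 4 windows for Pmp22, 3 for Mag and 1 for S100b. It holds none for Mbp or Sox10, so their upstream sequence was not searched. Printed are the pair of Pmp22 windows farthest upstream, the Mag window farthest upstream and that of S100b. The printed Pmp22 windows lie on the plus strand at chr11:63128732-63128981 and chr11:63131207-63131456, the S100b window lies on the plus strand at chr10:76253586-76253835, and the printed Mag window lies on the minus strand at chr7:30914923-30915172. Capitals mark a match to the SOX core ACAAAG on either strand.
Pmp22 first start: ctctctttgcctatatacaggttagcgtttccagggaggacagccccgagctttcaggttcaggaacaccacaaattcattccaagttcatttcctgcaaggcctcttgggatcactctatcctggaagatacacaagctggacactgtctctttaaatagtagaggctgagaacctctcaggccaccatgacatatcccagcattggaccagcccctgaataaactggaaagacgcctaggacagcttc
Pmp22 second start: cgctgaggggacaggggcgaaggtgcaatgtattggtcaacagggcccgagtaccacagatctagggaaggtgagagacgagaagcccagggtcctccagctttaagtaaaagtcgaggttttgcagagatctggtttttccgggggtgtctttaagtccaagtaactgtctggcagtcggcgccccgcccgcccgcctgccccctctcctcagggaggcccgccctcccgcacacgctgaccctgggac
S100b: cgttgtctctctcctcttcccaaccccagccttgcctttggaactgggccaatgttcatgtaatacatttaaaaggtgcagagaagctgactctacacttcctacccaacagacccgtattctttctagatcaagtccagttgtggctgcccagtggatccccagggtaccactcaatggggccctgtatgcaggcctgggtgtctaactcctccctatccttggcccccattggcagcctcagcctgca
Mag: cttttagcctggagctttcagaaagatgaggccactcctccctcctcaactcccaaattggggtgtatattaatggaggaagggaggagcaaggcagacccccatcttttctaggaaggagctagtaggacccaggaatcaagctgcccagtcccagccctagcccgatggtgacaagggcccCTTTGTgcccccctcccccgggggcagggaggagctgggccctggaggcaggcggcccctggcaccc

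The printed Mag window held 1 match, read as CTTTGT on the coding strand. A second Mag window overlaps it and holds the same site, and the third, at chr7:30914322-30914571, held none. The SOX cores ACAAAG and ACAATG and the EGR core GTGGGCG were searched on both strands, and no match of one overlapped a match of another here. In 32851 such windows of the RefSeq table, 16.5% held ACAAAG, 10.7% held ACAATG and 7.02% held GTGGGCG. None of the 4 Pmp22 windows held any of these, nor did the S100b window or the 1 window of Prx. Of 5 Egr2 windows, not printed here, 1 held GTGGGCG and none held a SOX core. From upstream to downstream the Pmp22 windows had 48.8%, 61.2%, 64.8% and 73.6% G and C and 3, 14, 14 and 27 CpG dinucleotides, the last of them overlapping the one before, beside medians of 52.4% and 6 over the table. These matches describe letters only.

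All values below are log2 RMA levels, in which a step of 1 is a 2-fold difference in signal. To judge detection, 116 probe sets for 88 genes typical of retina, testis, liver, pancreas and other organs were used, and their 95th percentile in a muscle was its background level. It lay at 6.16, 6.35 and 6.18 in muscles 1, 2 and 3. A probe set above it is called detected, and one below it may still be expressed. Probe sets bind with unequal strength, so each is set against background and across muscles, not against another probe set. Of the 17 member probe sets 7 exceeded background in each of the 3 muscles, 10 exceeded it in no muscle, and no probe set was split between muscles. Over all 22626 probe sets other than controls 45.8% exceeded background throughout and 49.1% nowhere, so the count of members is near that of the array. By the highest probe set of each gene, Pmp22, Mbp and Sox10 were detected and Egr2, S100b and Mag were not, which is 3 of 6 genes beside 54.2% of 12393 genes. For a probe set below background in whole tissue, few Schwann cells, little RNA per cell and weak binding cannot be told apart.

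Of 12 skeletal muscle genes, counted to check the tissue label, 12 were above background, with a largest range (highest minus lowest muscle) of 0.068. Their median level, 13.38, was near the highest value on these arrays, 13.75, and whether a signal ceiling narrowed their range was not tested. The arrays were alike: across 11522 probe sets Pearson's r was 0.995 between muscles 1 and 2, and with muscle 3 it was 0.991 for muscle 1 and 0.990 for muscle 2; probe sets are not independent replicates. Muscle 3 stood somewhat apart. Among 68 of these probe sets with a range of at least 1 it was the muscle farthest from the others in 62, and its 18S ribosomal control at the 5′ end read 11.69 against 10.96 in muscle 1 and 11.23 in muscle 2. The member counts of 7 probe sets and 3 genes were the same without muscle 3, and the part of the 18S signal in any member's level was not tested.

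**Figure D1:**
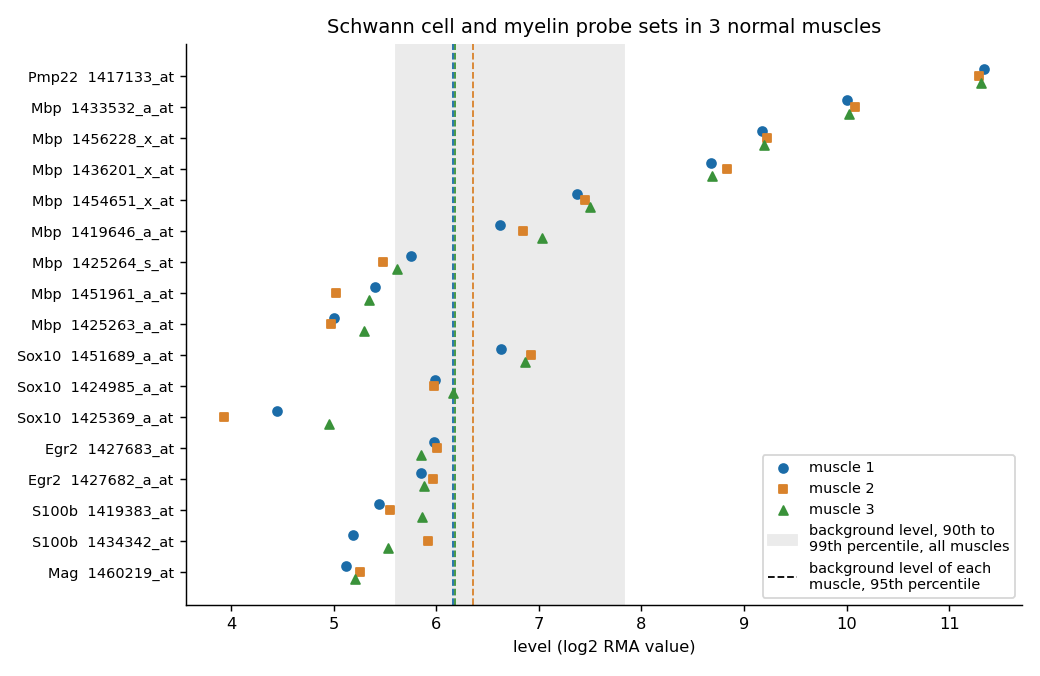
Level of each of the 17 member probe sets (log2 RMA value) in muscle 1 (circles), muscle 2 (squares) and muscle 3 (triangles). Dashed lines give the background level of each muscle and the shaded band spans the background levels at the 90th and 99th percentile. Pmp22 and 3 Mbp probe sets lie right of the band in every muscle, and Mag lies left of it.

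Among the structural genes of myelin, Pmp22 was clearly detected. Pmp22 (1417133_at) read 11.34, 11.29 and 11.31 in muscles 1, 2 and 3, with a mean of 11.31 ± 0.03 (SD, n = 3). It exceeded the background by 4.94 to 5.18, and its whole range was 0.053, a 1.04-fold span. Muscle 1 was the highest here and the order rests on differences of a few hundredths. Its relatives, the epithelial membrane proteins, were detected as well: Emp1 at 9.51 ± 0.06, Emp2 at 7.93 ± 0.05 and Emp3 at 7.65 ± 0.09 (SD, n = 3), 3 of 3 measured. These are tetraspan proteins of many tissues.

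Mbp was above background in every muscle by 5 of its 8 probe sets and in no muscle by 3. The probe set 1433532_a_at was at 10.002, 10.08 and 10.03 in muscles 1, 2 and 3, a mean of 10.04 ± 0.04 (SD, n = 3). The probe set 1456228_x_at was at 9.18, 9.22 and 9.20, a mean of 9.20 ± 0.02 (SD, n = 3). For 1436201_x_at the values were 8.67, 8.83 and 8.69, with muscle 2 above the others and a mean of 8.73 ± 0.09 (SD, n = 3). These 3 lay at least 2.48 above background in every muscle.

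A pair of further Mbp probe sets was above background by less. The probe set 1454651_x_at was at 7.37, 7.45 and 7.50 in muscles 1, 2 and 3, a mean of 7.44 ± 0.06 (SD, n = 3). The other, 1419646_a_at, was at 6.62, 6.85 and 7.03, a mean of 6.83 ± 0.21 (SD, n = 3), and its excess over background ran from 0.46 in muscle 1 to 0.85 in muscle 3. It had the widest range of all detected members, 0.414 or 1.33-fold.

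The remaining 3 Mbp probe sets did not reach background in any muscle. Muscle 1 read 5.76, muscle 2 read 5.48 and muscle 3 read 5.61 for 1425264_s_at. The values of 1451961_a_at were 5.40, 5.02 and 5.34, and those of 1425263_a_at were 5.005, 4.97 and 5.29. No Mbp probe set ranged by more than 0.414 between muscles. The gene has many splice forms and alternative starts, and the array designer's suffixes mark all 8 as not unique to 1 transcript. Of these, 4 end in _a_at (several transcripts of 1 gene) and 1 in _s_at (transcripts that may belong to several genes). The other 3 end in _x_at (some probes may bind other sequences). All 3 were above background, and the part of other sequences in their levels was not tested. Which transcripts each probe set reads was not tested.

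Mag, a myelin protein of the innermost membrane, was below background by about 1 unit. Mag (1460219_at) read 5.12, 5.25 and 5.21 in muscles 1, 2 and 3, a mean of 5.19 ± 0.07 (SD, n = 3). It lay 0.97 to 1.10 under the background level. Relatives of Mag in the sialic acid-binding family were below background too, with Cd22 at 6.03 ± 0.11, Siglec1 at 5.49 ± 0.12 and Siglece at 4.92 ± 0.24 (SD, n = 3). Ahnak, a large scaffold protein related to periaxin, was detected at 10.71 ± 0.01 (SD, n = 3) and was the 1 of 6 measured genes of this list above background.

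S100b, the calcium-binding marker of Schwann cells, was not detected by either probe set. The probe set 1419383_at read 5.44, 5.55 and 5.86 in muscles 1, 2 and 3, a mean of 5.61 ± 0.22 (SD, n = 3). The other, 1434342_at, was at 5.19, 5.92 and 5.53, a mean of 5.55 ± 0.37 (SD, n = 3). Both probe sets were lowest in muscle 1, but the first was highest in muscle 3 and the second in muscle 2, so they did not order the muscles alike. Other S100 genes were above background: S100a1, the muscle form, was at 10.59 ± 0.02, S100a4 at 8.13 ± 0.08, S100a6 at 9.89 ± 0.06 and S100a8 at 7.09 ± 0.16 (SD, n = 3). Of 13 measured genes of the S100 list 7 were detected, and the 13 include 1 gene for an S100-binding protein, which was not among the 7. S100a3, S100a5 and S100a9 did not reach background, at 3.70 ± 0.06, 4.46 ± 0.26 and 5.78 ± 0.12 (SD, n = 3).

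Sox10, the lineage factor, was above background by 1 of its 3 probe sets. The probe set 1451689_a_at read 6.63, 6.92 and 6.86 in muscles 1, 2 and 3, a mean of 6.80 ± 0.15 (SD, n = 3), which is 0.47 to 0.68 above background. The second, 1424985_a_at, was at 5.99, 5.98 and 6.16, a mean of 6.04 ± 0.10 (SD, n = 3), and missed the background level by 0.02 in muscle 3 and by 0.38 in muscle 2. The third, 1425369_a_at, was at 4.45, 3.93 and 4.95, a mean of 4.44 ± 0.51 (SD, n = 3). All 3 are marked as reading several transcripts of Sox10. The third had the widest range of any member, 1.02 or 2.02-fold, entirely under background, where muscle 2 was lowest and muscle 3 highest. With the background level at the 99th percentile Sox10 was not detected, so its call depends on that choice. It also rests on taking the highest probe set of a gene. With the mean over the probe sets of each gene, 2 member genes were detected in place of 3.

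Other Sox factors were mixed. Of 8 measured, 5 were detected, among them Sox4 at 8.71 ± 0.02, Sox6 at 9.34 ± 0.41, Sox7 at 7.68 ± 0.03 and Sox17 at 6.79 ± 0.05 (SD, n = 3). Sox9, the relative of Sox10 that marks cartilage, was below background at 5.47 ± 0.11 (SD, n = 3), as were Sox11 at 4.40 ± 0.24 and Sox5 at 4.56 ± 0.08 (SD, n = 3). Sox6, which shapes fibre type in muscle, was lower in muscle 3, at 8.87, than in muscles 1 and 2, at 9.57 and 9.58.

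Egr2, which drives myelin genes with Sox10, lay just under background by both probe sets. The probe set 1427683_at read 5.98, 6.00 and 5.85 in muscles 1, 2 and 3, a mean of 5.94 ± 0.08 (SD, n = 3). The other, 1427682_a_at, was at 5.85, 5.96 and 5.87, a mean of 5.90 ± 0.06 (SD, n = 3). The shortfall was 0.18 to 0.39 over both, and with the background level at the 90th percentile both were above it in all 3 muscles. Its relatives Egr1 and Egr3, also induced early after stimulation, were detected at 8.26 ± 0.24 and 6.63 ± 0.09, and Egr4 was not, at 5.51 ± 0.03 (SD, n = 3). Nab1 and Nab2, which bind Egr factors and repress them, were detected at 8.57 ± 0.16 and 7.02 ± 0.25 (SD, n = 3). Of 12 immediate early genes 11 were above background, with Fos at 8.13 ± 0.11, Junb at 6.56 ± 0.11 and Jun at 9.50 ± 0.01 (SD, n = 3), and Fosb, at 3.97 ± 0.16, below it.

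The members were then compared between the 3 muscles. The 5 detected Mbp probe sets were all lowest in muscle 1, as was the detected Sox10 probe set, while Pmp22 was highest there. Over the array, 23.1% of probe sets detected in all 3 muscles were lowest in muscle 1. The probe sets of Mbp read one gene and are not independent, so the count amounts to 2 genes of 3. A departure, the difference of 1 muscle from the mean of the remaining pair, was small in muscle 1 for 4 of the Mbp probe sets, from -0.03 to -0.10, and larger for 1419646_a_at, -0.32, and for Sox10, -0.26. The median over the 7 detected member probe sets was -0.08, 0.03 and -0.005 in muscles 1, 2 and 3, beside 0.02, 0.01 and -0.04 over all 10373 probe sets detected. Leukocyte genes, whose cells also transcribe the Mbp locus, had median departures of 0.13, -0.06 and -0.16 in muscles 1, 2 and 3. This median is over all 9 measured leukocyte genes, detected or not, so it is not like for like with those of detected probe sets. The part of leukocytes in the Mbp levels was not tested.

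**Figure D2:**
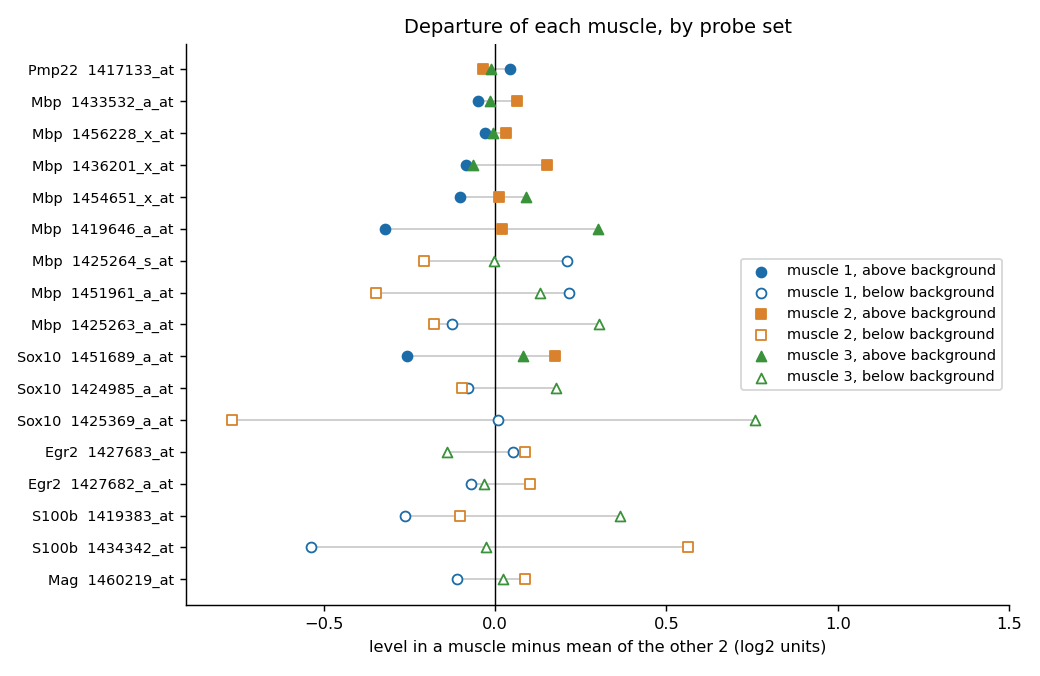
Departure of each muscle from the mean of the remaining pair (log2 units) for the 17 member probe sets, with filled marks for probe sets above background and open marks for those below. Detected Mbp and Sox10 probe sets have muscle 1 at the left end, and the widest spread is that of the undetected Sox10 probe set 1425369_a_at, from -0.77 to 0.76.

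No member was called as varying in excess between muscles by a variance test built on limma's prior. The variance of each of 11522 probe sets detected in at least 1 muscle was set against limma's prior variance, and 0.0694% of them had an adjusted p under 0.05. Of the 7 member probe sets in that test 0 were called, 0 had an unadjusted p under 0.05, where 4.87% of all did, and the lowest limma adjusted p was 0.992. The smallest unadjusted p by limma was 0.170, for Mbp 1419646_a_at, whose SD of 0.207 stood against a prior SD of 0.132. For 4 of the 7 the SD was below the prior SD, for example 0.021 against 0.070 for 1456228_x_at and 0.027 against 0.043 for Pmp22. The design has 3 arrays, so a p that misses the threshold does not show that the muscles were equal. Among detected members 0 had a range of at least 1, where 0.59% of the probe sets tested did. With undetected probe sets included, 1 member did, Sox10 1425369_a_at, beside 0.659% of all. By limma it had an unadjusted p of 0.0170 and an adjusted p of 0.939 there.

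**Figure D3:**
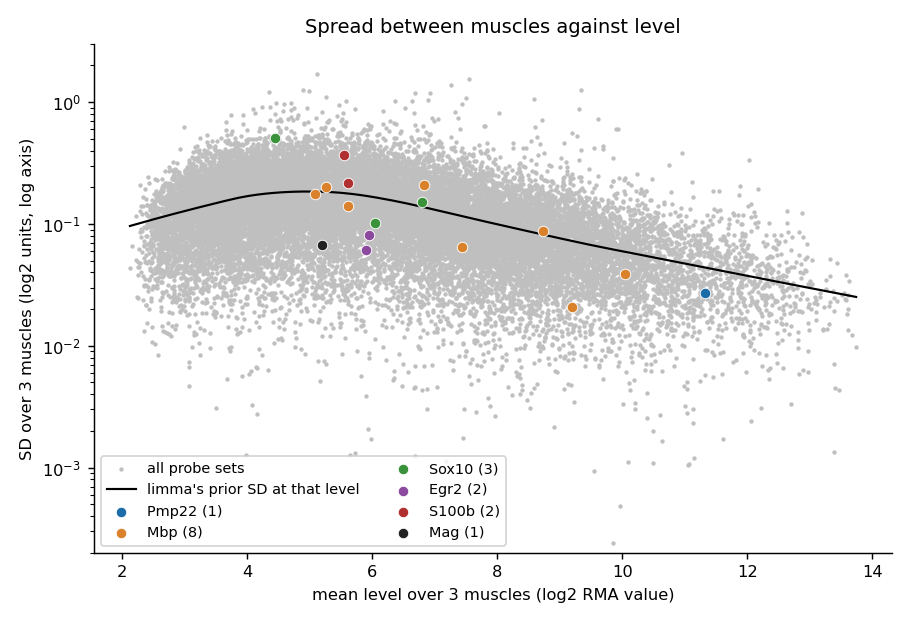
SD over the 3 muscles (log2 units, log axis) against mean level (log2 RMA value) for all probe sets in grey and the member probe sets in colour, with the number per gene in the legend. The line is limma's prior SD fitted without a background filter. Members lie on both sides of the line, with Sox10 1425369_a_at highest at an SD of 0.508.

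Other genes of the Schwann cell programme were counted from lists, each gene by its highest probe set, beside 54.2% of all genes detected. Of 12 measured genes for other proteins and lipids of myelin 7 were detected in all muscles and 3 in none. Cnp, an enzyme of myelin cytoplasm, was at 9.37 ± 0.03, Mal, a raft proteolipid, at 7.04 ± 0.09, the related Pllp at 6.66 ± 0.13 and the tetraspanin Cd9 at 9.26 ± 0.12 (SD, n = 3). Below background were the tight junction gene Cldn19 at 3.33 ± 0.21, the gap junction gene Gjb1 at 5.43 ± 0.30 and the sulfatide enzyme Gal3st1 at 5.50 ± 0.38 (SD, n = 3).

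Of 13 measured genes for signals that Schwann cells receive, a list that includes laminin genes, 10 were above background in all muscles. The counts in this paragraph are of whole tissue, and which cells carry the signal was not tested. Erbb3, the receptor through which neuregulin acts on Schwann cells, was at 7.13, 7.29 and 7.02 in muscles 1, 2 and 3, a mean of 7.15 ± 0.14 (SD, n = 3). Its partner Erbb2 was below background at 6.01 ± 0.24 (SD, n = 3). The laminin receptor genes Itga6, Itgb1 and Dag1 were detected at 8.67 ± 0.10, 8.41 ± 0.14 and 10.61 ± 0.05 (SD, n = 3), and the latter is also part of the dystrophin complex of muscle fibres. The kinase gene Tyro3 was below background at 4.68 ± 0.19 (SD, n = 3). Of 23 lineage regulators 15 were detected and 7 were not. Yy1 was at 9.27 ± 0.13 (SD, n = 3), while Sox2, Tfap2a and Pou3f2 were below background at 2.47 ± 0.10, 4.94 ± 0.24 and 5.38 ± 0.14 (SD, n = 3).

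Genes of non-myelinating, immature and repair Schwann cells were detected in 4 of 23 cases, with 15 in none. The neurotrophin receptor Ngfr, the filament gene Gfap and the adhesion gene L1cam were below background at 5.78 ± 0.10, 5.85 ± 0.08 and 5.90 ± 0.21 (SD, n = 3). Detected were the lipocalin Apod at 7.98 ± 0.18, Mcam at 7.55 ± 0.30, Matn2 at 6.97 ± 0.06 and the artemin receptor Gfra3 at 7.22 ± 0.05 (SD, n = 3), some of which other cells of muscle also express. Of 10 genes of demyelinating neuropathy 9 were detected, among them Litaf at 7.88 ± 0.09, Mtmr2 at 7.11 ± 0.17, Sbf2 at 8.67 ± 0.09 and Fig4 at 7.27 ± 0.10, and Fgd4 was below background at 4.25 ± 0.05 (SD, n = 3). The detected ones named act in membrane traffic of many cell types. Cholesterol synthesis, which all cells run and myelinating cells use in bulk, had 10 of 15 genes detected, with Hmgcs1 at 10.13 ± 0.07, Pmvk at 7.39 ± 0.07, Idi1 at 7.80 ± 0.14 and Fdps at 7.45 ± 0.09, and with Mvk, Mvd and Lss below background at 5.81 ± 0.16, 5.97 ± 0.04 and 5.53 ± 0.30 (SD, n = 3).

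**Figure D4:**
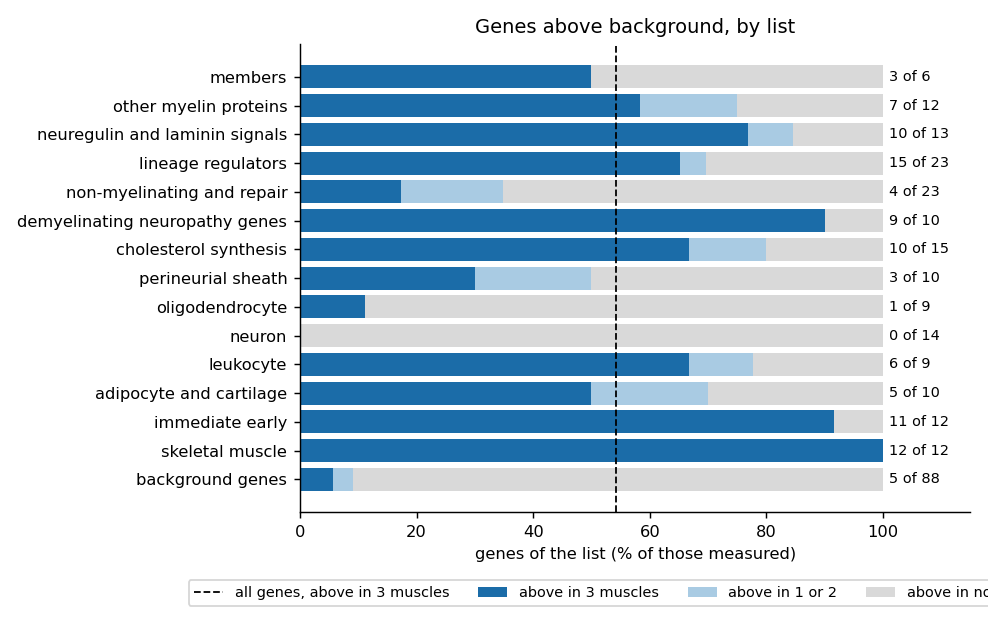
Share of the measured genes of each list (percent) above background in 3 muscles, in 1 or 2, and in none, with the number above in 3 muscles at the right. The dashed line marks 54.2%, the share over all genes. Neuronal genes have 0 of 14 detected and the members 3 of 6.

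Markers of other cells that could carry the members were counted too. Of 9 measured oligodendrocyte genes, which would mark central myelin, 1 was detected, Aspa at 6.61 ± 0.25, while Mog, Mobp and Olig2 were at 2.75 ± 0.22, 4.24 ± 0.09 and 2.63 ± 0.02 (SD, n = 3). Neuronal genes were below background in 14 of 14 cases, with the neurofilament genes Nefl, Nefm and Nefh at 3.14 ± 0.24, 2.28 ± 0.21 and 5.80 ± 0.27 (SD, n = 3). This count is no measure of how much nerve the samples held, which was not tested. Perineurial and nerve fibroblast genes were detected in 3 of 10 cases, namely Slc2a1 at 7.86 ± 0.14, Tjp1 at 8.63 ± 0.13 and Sfrp4 at 6.98 ± 0.21, with Ocln, Tenm2 and Ntng1 below background at 3.59 ± 0.14, 3.88 ± 0.08 and 3.79 ± 0.13 (SD, n = 3).

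Beside Mbp, leukocyte genes were detected in 6 of 9 cases, with Ptprc at 8.88 ± 0.09, Cd3e at 7.33 ± 0.19, Cd3d at 6.90 ± 0.14 and Cd79a at 6.88 ± 0.07, and with Cd3g and Cd8a below background at 5.09 ± 0.39 and 5.97 ± 0.14 (SD, n = 3). Beside S100b, adipocyte and cartilage genes were detected in 5 of 10, with Adipoq at 10.51 ± 0.10, Cidec at 7.30 ± 0.16, Fabp4 at 12.23 ± 0.02 and the cartilage collagen Col2a1 at 6.48 ± 0.14, and with Acan, Matn1 and Matn3 below background at 5.04 ± 0.07, 2.65 ± 0.21 and 3.64 ± 0.28 (SD, n = 3). Leptin (Lep) ranged from 5.36 in muscle 3 to 6.60 in muscle 2, and Col9a1 from 5.15 in muscle 2 to 6.22 in muscle 3, the only genes of these lists with a range of at least 1. The part of these cells in the levels of Mbp and S100b was not tested.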

How the data were processed

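RNA of 3 normal muscles was hybridised to 1 array each, after Trizol extraction and biotin labelling of 500 ng, per the labels' protocols. The deposited values are log2 levels per probe set, for which the submitters' processing notes name RMA, which subtracts background, quantile normalizes and summarises probes. The RMA version, and the set of arrays processed jointly, are not given in the sources at hand. The number of arrays limits the precision, and no detection calls were available. Platform annotation assigned 1 gene to 20393 probe sets, several to 691 and none to 1606. The gene of each of the 17 member probe sets matched RefSeq (GRCm38.p6) by Entrez number. No coordinates are given for probe sets, since the build behind their annotation is not named; those of upstream windows are RefSeq's.

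Background levels, ranges and departures were computed in Python 3.11.15 with pandas 2.3.3. Spread was tested in R 4.3.3 (limma 3.58.1) by setting each variance (2 degrees of freedom) against a robust prior with a trend on level, one-sided F, Benjamini-Hochberg over 11522 probe sets. The prior came from limma, and the F test was computed separately from it. Every p credited to limma is from this F test. The robust fit lowers the prior degrees of freedom of outlying probe sets, but the test gave every probe set those of the bulk, 5.72. The F test was also run on data simulated from its own fitted prior with muscle 3 shifted in some probe sets. Such data cannot show how it behaves on these arrays. Members and lists were chosen with earlier results of these data known. Named were every member, the first 4 detected and first 3 undetected genes of each list in written order, and listed genes with a range of at least 1. Genes in 2 lists are described once, and the muscle list only by its count. Alternatives were other background percentiles, renormalization, leaving out each muscle, probe set marks, probe set means, other limma settings and other size limits.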

Additional observations from a re-analysis of the deposited data

How the results depend on the processing

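With 3 arrays of 1 group and no detection calls, a call near background is uncertain. Of 17 member probe sets, the 7 detected became 4 at the 99th percentile (3 of Mbp and that of Pmp22) and 10 at the 90th. Without probe sets marked _a_at, _s_at or _x_at only 5 member probe sets remained, and 1 was detected. Without _s_at and _x_at alone, an alternative chosen after seeing the data, 4 were detected. Leaving out marked probe sets lowers such counts by itself. The 3 detected genes became 2 at the 99th percentile, 4 at the 90th, and 2 with the mean over the probe sets of a gene. They became 1, Pmp22, without all marked probe sets, since every Mbp and Sox10 probe set is marked. Over the array, 10373 detected probe sets of 22626 became 5807 at the 99th percentile and 11806 at the 90th. From fewer probe sets, 6464 were detected without all marked ones and 8601 without _s_at and _x_at alone. The 96 detected genes of the other lists became 47 at the 99th percentile. Member counts of 7 probe sets and 3 genes were the same with each muscle left out, with a range of 7 to 7 and 3 to 3, and after quantile normalization or median centring. The count of members with a range of at least 1, 0, became 1 without the filter (more probe sets tested). The largest member departure, 0.77, ran from 0.50 to 1.02 with a muscle left out, where it is the difference of 2 muscles.

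The variance test called 8 probe sets of the array, and 3 at the 99th percentile, 25 after quantile normalization, 16 without the filter, 0 without a trend and 0 with a prior that was not robust. At an unadjusted p under 0.05 limma gave 561 in the reported setting, and 405 and 488 in the last pair. With a muscle left out the calls ran from 0 to 1. No member was called in any of these settings, with 0 members at an unadjusted p under 0.05 except 1 without the filter. The cause of these shifts was not tested. No paired analysis was possible because there is only 1 group.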
